A study of Arabidopsis thaliana with 12 samples.

Results

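JAZ proteins (jasmonate ZIM-domain proteins of the TIFY family) are the repressors of jasmonate signalling, and 8 probe sets assigned to JAZ genes were followed here, out of 22746 on the array. They were chosen by probe set identifier, as members of the JAZ family, with earlier results of these data known: JAZ1 (256017_at, AT1G19180), JAZ2 (262171_at, AT1G74950), JAZ5 (261033_at, AT1G17380), JAZ6 (260429_at, AT1G72450), JAZ7 (266901_at, AT2G34600), JAZ8 (256159_at, AT1G30135), JAZ9 (260205_at, AT1G70700) and JAZ10 (250292_at, AT5G13220). The gene names are those of that choice, given with their Arabidopsis locus. The platform gene table used here lists no gene for any of the 8, so it gave no second check of the names. RNA came from Arabidopsis thaliana seedlings 14 days old, grown in MS medium with glucose under constant light. Wild-type plants and erf5/6 double mutants, which carry mutations in both ERF5 and ERF6, each received either water or chitooctaose at 1 µM for 30 min. Chitooctaose is a soluble chain of N-acetylglucosamine units, a piece of chitin from fungal cell walls. ERF5 and ERF6 encode ethylene response factors, and the accession of the wild type and the mutant alleles are not given in the sources used here. Each of the 4 groups had 3 arrays, called biological replicates in the labels.

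In the jasmonate pathway JAZ proteins bind the transcription factor MYC2 and its relatives and hold their target genes silent, together with the adaptor NINJA and the corepressor TOPLESS. When jasmonoyl-isoleucine, the active hormone, accumulates, it joins a JAZ protein to the F-box receptor COI1, and the JAZ protein is ubiquitinated and degraded. Most JAZ genes are themselves targets of the MYC factors, so that new repressor is made soon after the hormone signal, a negative feedback. The members differ in this system. JAZ1 and JAZ2 are close paralogues, as are JAZ5 and JAZ6. JAZ7 and JAZ8 carry a repression motif of their own that binds TOPLESS without NINJA, and JAZ8 lacks the canonical degron that COI1 recognizes.

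The arrays separated by treatment on principal component 1, which carried 64.9% of the variance, and the lowest correlation between arrays of a group was 0.984. On component 2, with 7.42% of the variance, array 2 of chitooctaose-treated wild type (-26.6) and array 1 of water-treated wild type (-19.5) stood apart from the other 10 arrays, which lay between -5.65 and 11.4. Column medians of the deposited intensities lay between 77.0 and 83.2. The gene table names no probe set as ERF5 or ERF6, so the mutant label was not checked against the targeted transcripts. Of the lists of green tissue and root genes, 2 of 7 and 1 of 7 had a probe set: the rubisco activase gene RCA had group means of 12.6 on the log2 scale in all 4 groups, the light-harvesting gene LHCB4.1 between 12.3 and 12.4, and the root gene PYK10 between 11.9 and 12.1, so both shoot and root markers were present. In seedlings, which hold many cell types, fewer cells of a type and less RNA per cell cannot be told apart.

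Intensities are given after quantile normalization on a linear scale, and differences on the log2 scale after values under 16 were raised to 16, the intensity floor. Of the 8 JAZ probe sets 6 were above this floor on all 12 arrays, JAZ7 on 2 arrays and JAZ8 on 0. A probe set had to pass the floor on at least 1 array to be tested, which 7 of the 8 did, among 18680 in all. Differences were tested with limma over all 12 arrays, two-sided, and called at a Benjamini-Hochberg adjusted p under 0.05 over all tested probe sets.

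**Figure D1:**
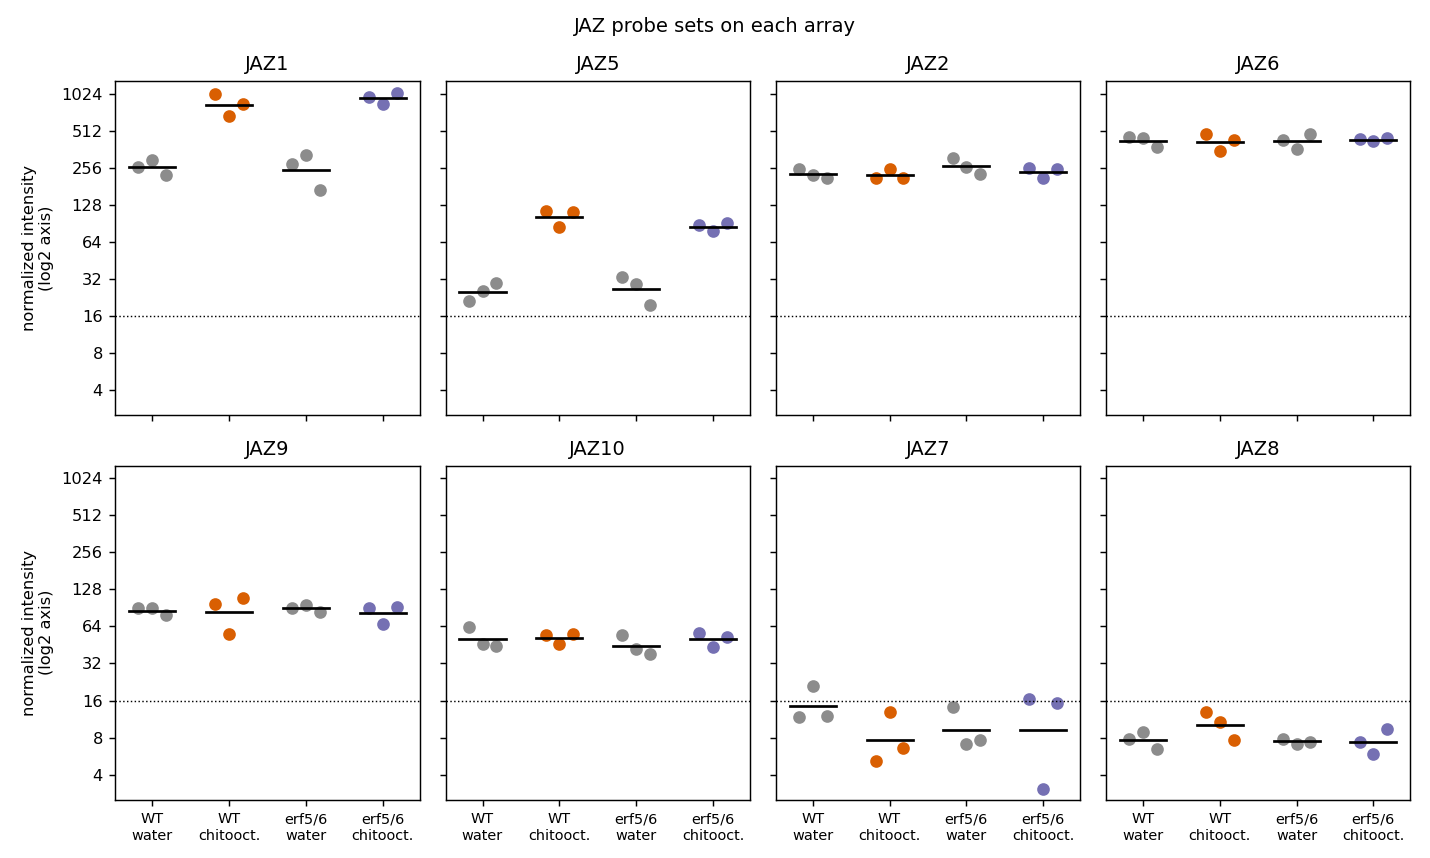
Normalized intensity of each JAZ probe set (vertical axis, log2 spacing, arbitrary units) on each of the 12 arrays (points), in wild type (WT) and erf5/6 after water (grey) or chitooctaose ("chitooct.", orange for WT, violet for erf5/6); bars are the means of the 3 log2 values and the dotted line is the floor of 16. JAZ1 and JAZ5 are higher on every chitooctaose array than on any water array of the same genotype, the points of JAZ2, JAZ6, JAZ9 and JAZ10 overlap between treatments, and JAZ7 and JAZ8 lie near or under the floor.

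The first comparison asked which JAZ transcripts responded to chitooctaose in wild type within 30 min. JAZ1 and JAZ5 rose, by 3.22-fold and 4.07-fold, and no JAZ probe set was called lower. In the table of all probe sets 6.06% were called higher in wild type and 4.08% lower, against 2 and 0 of the 7 tested JAZ probe sets. The count of lower calls depended on the arrays: 762 in all, it was 354 when array 1 of the wild-type water group was dropped, 431 when array 2 was, and 379 without array 3 of chitooctaose-treated wild type, while the 1132 higher calls moved by under 1.5 times. The median log2 difference was -0.02 over these 7 and -0.07 over all tested probe sets.

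JAZ1, among the JAZ genes first described as degraded after jasmonate treatment, had normalized intensities of 262, 299 and 223 on the 3 water arrays of wild type. On the chitooctaose arrays of wild type it had 1019, 674 and 852. Every treated array was more than 2 times as bright as every water array, and array 2, the dimmest of the treated ones, is an array that stood apart on component 2. The rise was 1.69 ± 0.23 in log2 units (SE, 3 arrays a group, 95% interval 1.19 to 2.19), with an adjusted p of 0.000413 from limma. Of all tested probe sets 1.96% had a higher log2 difference.

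JAZ5, the paralogue of JAZ6, started from a dim signal: 21.3, 25.5 and 29.7 on the water arrays of wild type, not far above the floor. After chitooctaose it had 115, 84.0 and 112. The groups did not overlap, and array 2 was again the dimmest treated array. The rise was 2.02 ± 0.19 in log2 units (SE, 3 arrays a group, 95% interval 1.59 to 2.45), with an adjusted p of 2.68e-05 from limma, and 1.48% of tested probe sets ranked above it. Because the water signal was dim, the size of this rise depended on how low values were handled: with 32 added to every value and no floor it was 1.23, still called. Groups failed to overlap in this direction for 9.12% of all tested probe sets in wild type.

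The other JAZ transcripts measured above the floor gave no call in wild type, and their intensities overlapped between treatments. JAZ2, the paralogue of JAZ1, had 252, 223 and 212 in water and 211, 252 and 211 in chitooctaose. JAZ6, the paralogue of JAZ5, had 455, 444 and 379 in water and 480, 353 and 434 in chitooctaose. For both, the lowest water array lay within the range of the treated arrays. The log2 difference of JAZ2 was -0.03 (95% interval -0.31 to 0.25, adjusted p = 0.935) and that of JAZ6 was -0.02 (95% interval -0.31 to 0.27, adjusted p = 0.964), both from limma, so that rises above 1.19-fold and 1.21-fold lie outside these intervals.

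JAZ9, a JAZ repressor that binds MYC factors, had 90.0, 90.4 and 78.7 in water and 96.8, 55.6 and 108 in chitooctaose in wild type. Its treated group was the more scattered, with array 2 far below the others. JAZ10, known for splice forms that resist degradation, had 63.9, 46.3 and 44.7 in water and 54.6, 45.8 and 55.7 in chitooctaose. Their log2 differences were -0.05 (95% interval -0.52 to 0.43) for JAZ9 and 0.03 (95% interval -0.36 to 0.41) for JAZ10, with limma adjusted p-values of 0.944 and 0.969. Leaving out both arrays that stood apart gave 0.28 for JAZ9 and 0.28 for JAZ10, neither called.

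JAZ7 and JAZ8 had little or no signal above the floor. JAZ7 was above the floor on array 2 of water-treated wild type, at 21.0, and on array 1 of chitooctaose-treated mutant, at 16.6, and ranged from 3.04 to 15.4 on the other 10 arrays. JAZ8 ranged from 5.88 to 12.8 over the 12 arrays, so it was not tested. Levels under the floor have no order here, and a change of either transcript below that level was not detectable on these arrays. The log2 difference of JAZ7 was -0.13 in wild type (adjusted p = 0.472) and 0.02 in the mutant (adjusted p = 0.957) with limma, and each rests on the 1 array above the floor.

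The second comparison was the response of the erf5/6 mutant. JAZ1 and JAZ5, and no other member, rose there as well: JAZ1 by 3.84-fold and JAZ5 by 3.19-fold, 2 of 7 tested, with 0 lower, where 5.95% of all tested probe sets were called higher and 2.66% lower. Of the calls in the mutant 30.9% were lower, and 16.6% when the deposited values were not normalized again. The 497 lower calls numbered 309 without array 3 of water-treated mutant, and 322 and 302 without array 1 or array 3 of chitooctaose-treated mutant. JAZ1 had 274, 324 and 170 on the water arrays and 969, 849.6 and 1036 on the chitooctaose arrays. JAZ5 had 33.2, 29.0 and 19.9 in water and 87.5, 78.2 and 91.2 in chitooctaose. For both, array 3 was the dimmest water array and the groups did not overlap, which held in this direction for 8.8% of all tested probe sets.

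On the log2 scale the rise of JAZ1 in the mutant was 1.94 ± 0.23 (SE, n = 3 arrays per group, 95% interval 1.44 to 2.44), with a limma adjusted p of 0.000128. That of JAZ5 was 1.68 ± 0.19 (95% interval 1.25 to 2.11), with a limma adjusted p of 0.000124. With the offset, JAZ5 rose by 0.99 in the mutant, still called. Without array 3 of water-treated mutant the rises were 1.67 for JAZ1 and 1.46 for JAZ5.

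JAZ2 had 306, 261 and 229 in water and 256, 212 and 249 in chitooctaose in the mutant, and JAZ6 had 429, 363 and 482 against 438, 424 and 444. Neither gave a call: the log2 difference was -0.15 for JAZ2 (95% interval -0.42 to 0.13, adjusted p = 0.567 from limma) and 0.05 for JAZ6 (95% interval -0.24 to 0.34, adjusted p = 0.893). The 3 treated arrays of JAZ6 lay closer together than its water arrays, which spanned their whole range. JAZ9 had 90.5, 95.6 and 84.7 in water and 89.8, 66.9 and 92.8 in chitooctaose. JAZ10 had 54.5, 42.2 and 38.0 in water and 57.1, 43.6 and 52.4 in chitooctaose. The groups overlapped for both: the log2 difference was -0.13 for JAZ9 (95% interval -0.61 to 0.35) and 0.19 for JAZ10 (95% interval -0.19 to 0.58), with limma adjusted p-values of 0.788 and 0.581.

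**Figure D2:**
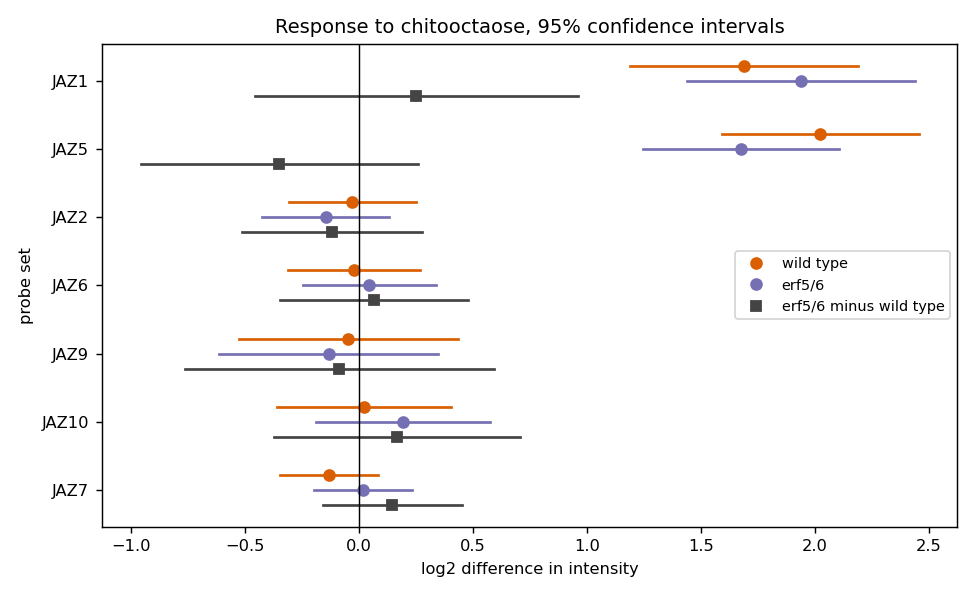
Log2 difference in intensity between chitooctaose and water (horizontal axis) for the 7 tested JAZ probe sets in wild type (orange) and erf5/6 (violet), and the erf5/6 response minus the wild-type response (grey squares); lines are 95% confidence intervals from limma. The intervals of JAZ1 and JAZ5 lie above 0 in both genotypes, and all other intervals, those of the differences between genotypes included, contain 0.

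Whether a JAZ response differed between the genotypes was tested as the mutant response minus the wild-type response. For JAZ1 this difference was 0.25 ± 0.32 on the log2 scale (SE, 95% interval -0.46 to 0.96), and for JAZ5 it was -0.35 ± 0.28 (95% interval -0.96 to 0.26). These have opposite signs, and neither is distinguishable from 0 at the spread between arrays. Limma called 0 of 7 JAZ probe sets, each with an adjusted p of 0.997, and 0 had an unadjusted p under 0.05. Without array 3 of water-treated mutant the difference was -0.02 for JAZ1 and -0.56 for JAZ5. The intervals still allow the mutant response of either gene to be smaller or larger than that of wild type. Over all tested probe sets 0 were called for this difference (0%), and 859 had an unadjusted p under 0.05.

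The levels were also compared between the genotypes within each treatment. In water JAZ1 differed by -0.07 ± 0.23 on the log2 scale and JAZ5 by 0.08 ± 0.19, mutant minus wild type. After chitooctaose JAZ1 differed by 0.18 ± 0.23 and JAZ5 by -0.27 ± 0.19. The highest absolute difference in water among the 7 was that of JAZ2, 0.21 (95% interval -0.07 to 0.48). The groups of the 2 genotypes overlapped for all 7 in both treatments, while they were apart for 10.3% of all tested probe sets in water and for 10.5% in chitooctaose. Limma called 0 of 7 in either comparison, with lowest adjusted p-values of 0.904 and 0.855 and with 0 at an unadjusted p under 0.05, where 0.0321% of all tested probe sets were called in water and 0.0214% in chitooctaose. The responses and the genotype differences share arrays, since each group enters 1 of each.

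**Figure D3:**
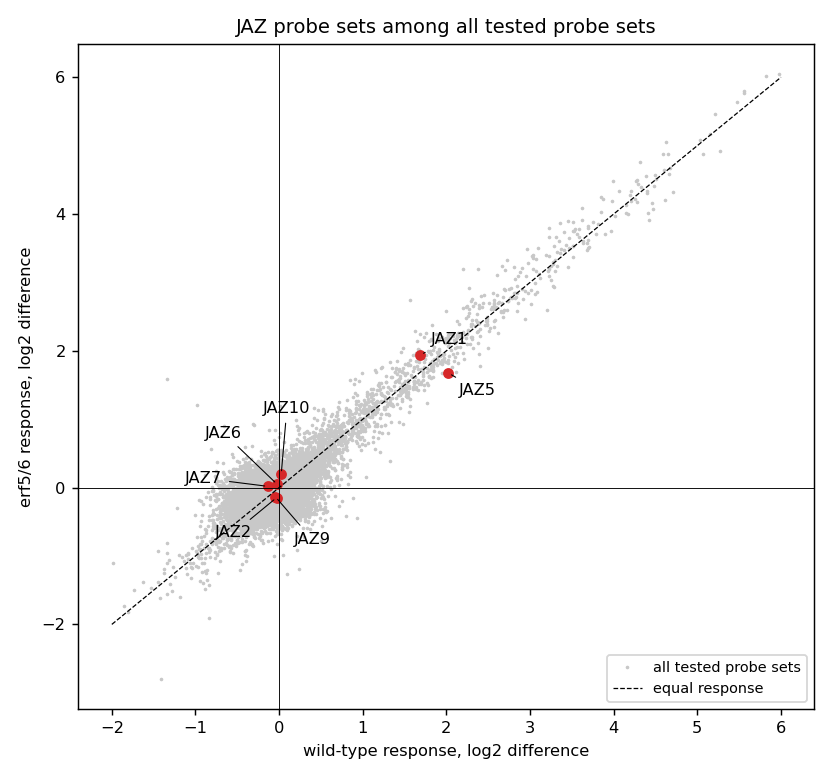
Log2 response to chitooctaose of each of the 18680 tested probe sets in wild type (horizontal axis) and erf5/6 (vertical axis), with the 7 tested JAZ probe sets in red and the line of equal response dashed. JAZ1 (1.69 and 1.94) and JAZ5 (2.02 and 1.68) lie among the risen probe sets on either side of the line, and the other 5 lie in the central cloud.

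The JAZ members thus fell into a pair that rose and a group that gave no call, and the division ran through both paralogue pairs. The differences between responses within pairs are given as a description with no test, since the pairs were looked at after the calls were known. The response of JAZ1 exceeded that of its paralogue JAZ2 by 1.72 in wild type and by 2.09 in the mutant on the log2 scale. The response of JAZ5 exceeded that of its paralogue JAZ6 by 2.04 in wild type and by 1.63 in the mutant. Between the risen members themselves, the response of JAZ5 minus that of JAZ1 was 0.34 in wild type and -0.26 in the mutant, with a mean of 0.04. Each probe set has its own range of response, so these differences are between probe set signals.

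With the responses of both genotypes averaged, a comparison added after the data were seen, JAZ1 rose by 1.81 ± 0.16 and JAZ5 by 1.85 ± 0.14 on the log2 scale (SE, 6 arrays per treatment, limma adjusted p = 8.03e-06 and 1.76e-06). For this average 7.51% of all tested probe sets were called higher and 9.44% lower. With the narrower intervals of this average the other tested members still gave no call: JAZ2 had -0.09 (95% interval -0.28 to 0.11), JAZ6 0.01 (-0.19 to 0.22), JAZ9 -0.09 (-0.43 to 0.25) and JAZ10 0.11 (-0.16 to 0.38).

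Within groups the JAZ signals varied between arrays, several of them in common. The pooled standard deviation within groups was 0.31 on the log2 scale for JAZ1, 0.27 for JAZ5, 0.30 for JAZ9 and 0.23 for JAZ10, above the median of 0.16 over all tested probe sets, while JAZ2 and JAZ6 had 0.16 and 0.17. Of all tested probe sets 93.2% had a smaller standard deviation than JAZ1. The deviations of JAZ1 and JAZ5 from their group means had a correlation of 0.68 over the 12 arrays, those of JAZ1 and JAZ9 of 0.61, and those of JAZ2 and JAZ10 of 0.64. JAZ6 had a correlation of 0.02 with JAZ1, of -0.12 with JAZ5 and of -0.26 with JAZ2, but of 0.54 with JAZ9 and of 0.35 with JAZ10. These are descriptions only, since the probe sets on an array share its hybridization and scaling.

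The arrays on which JAZ signals were low can be named. Array 2 was the dimmest of the chitooctaose-treated mutant group for 6 of 6 JAZ probe sets above the floor. Array 2 of chitooctaose-treated wild type was the dimmest for 5 of 6, and so was array 3 of water-treated wild type and of water-treated mutant. The mean deviation of the 6 from their group means was -0.24 on array 2 of chitooctaose-treated wild type and -0.22 on array 3 of water-treated mutant. Over all tested probe sets these 4 arrays were the dimmest of their group for between 30.5% and 34.4% of probe sets. The part of these array deviations in the results was not tested beyond leaving out arrays: with single arrays left out JAZ1 rose by 1.55 to 1.84 in wild type and by 1.67 to 2.13 in the mutant, and JAZ5 by 1.90 to 2.17 and by 1.46 to 1.83, with each call kept.

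**Figure D4:**
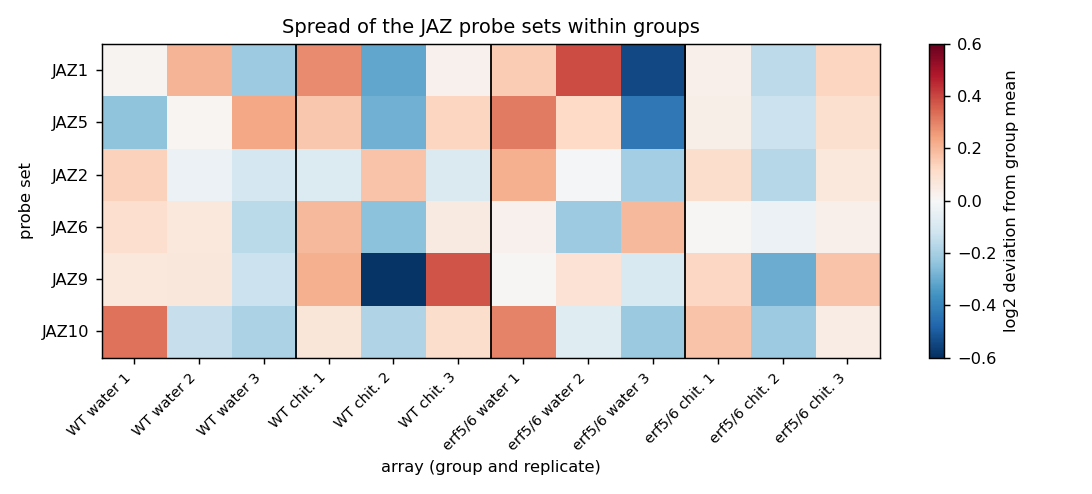
Deviation of each JAZ probe set above the floor (rows) from the mean of its group on each array (columns, grouped by genotype and treatment, "chit." for chitooctaose), on the log2 scale from blue (lower) to red (higher). Array 2 of both chitooctaose groups and array 3 of the mutant water group are mostly blue, with mean deviations of -0.24, -0.17 and -0.22 over the 6 probe sets.

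Genes elsewhere in the jasmonate pathway were looked up in lists of receptor and corepressor genes, transcription factors bound by JAZ proteins, biosynthesis, turnover and output genes, and further TIFY genes. Of the 69 entries 11 had a probe set of a single gene and 9 passed the floor. In wild type 1 of these 9 was called higher and 0 lower, against 6.06% and 4.08% of all tested probe sets, with a median log2 difference of -0.07, where the median of all tested probe sets was -0.07. In the mutant it was again 1 higher and 0 lower, against 5.95% and 2.66%, with a median of 0.00 against -0.08 for all tested probe sets. None of the 11 further TIFY genes and none of the 9 receptor and corepressor genes had such a probe set, so COI1, NINJA and TOPLESS are not analysed here.

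The gene that rose was OPCL1, which encodes a CoA ligase acting on a jasmonate precursor in the peroxisome. It had 147, 132 and 99.5 in water and 403, 413 and 367 in chitooctaose in wild type. In the mutant it had 153, 143 and 103 in water and 430.3, 421 and 455 in chitooctaose. In each genotype every treated array was brighter than every water array. This held in that direction for 9.12% of all tested probe sets in wild type and 8.8% in the mutant. The rise was 1.66 ± 0.16 in wild type and 1.73 ± 0.16 in the mutant (log2, SE, n = 3 arrays per group), with limma adjusted p-values of 2.97e-05 and 1.98e-05. ORA47, an AP2/ERF factor gene of jasmonate synthesis named here after its values were seen, was at 0.19 in wild type and 0.07 in the mutant, not called.

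Among transcription factor genes bound by JAZ proteins, MYC4 was at -0.40 in wild type and -0.42 in the mutant (limma adjusted p = 0.408 in both). Its signal was near the floor of 16, at 16.1 to 28.1 in water and 11.6 to 19.6 in chitooctaose in wild type. EIN3, the ethylene signalling factor, was at 0.08 and 0.01 (limma adjusted p = 0.666 and 0.967). Among turnover genes, AT5G05600, known as JAO2 and encoding a jasmonate oxidase, was at -0.35 and -0.38 (limma adjusted p = 0.124 and 0.11), and its relative AT2G38240, known as JAO4, at 0.24 and 0.00, which rests on 1 array above the floor (limma adjusted p = 0.4 and 1). Among outputs the defensin gene PDF1.2 was at -0.98 ± 0.56 in wild type and 1.21 ± 0.56 in the mutant, neither called (limma adjusted p = 0.328 and 0.254). Its water arrays of wild type were far apart, at 62.4, 246 and 39.1, against 61.2, 28.4 and 44.8 after chitooctaose. In the mutant PDF1.2 had 151, 127 and 80.7 in water and 332, 239 and 244 in chitooctaose, and the difference between the responses, 2.19, was not called (limma adjusted p = 0.975). After chitooctaose PDF1.2 was brighter on each mutant array than on any wild-type array, by 2.65 ± 0.56 on the log2 scale, not called over all probe sets (limma adjusted p = 0.395). The genotype groups were apart in this direction for 4.9% of all tested probe sets after chitooctaose.

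The transcripts whose pattern was most like that of the risen JAZ members were found by Pearson correlation of log2 intensity over the 12 arrays, among 10554 tested probe sets of a single named gene. The nearest to JAZ1 were AT3G44630 (r = 0.991), AT2G46600 (r = 0.986) and AT4G24380 (r = 0.985). The nearest to JAZ5 were CML38 (r = 0.988), a calmodulin-like calcium sensor gene, AT2G46620 (r = 0.987) and PUB22 (r = 0.981), a U-box ubiquitin ligase gene of immune signalling. These correlations mostly follow the separation of treated from water arrays: 382 probe sets exceeded 0.9 with JAZ1 and 392 with JAZ5. CML38 rose by 2.94 in wild type and by 2.47 in the mutant, AT2G46620 by 1.69 and 1.52, and PUB22 by 2.81 and 2.77. A difference between the responses was not called for any of them. They were picked for their likeness to JAZ5 on these same arrays, so their values are no separate support for a pattern of JAZ5.

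**Figure D5:**
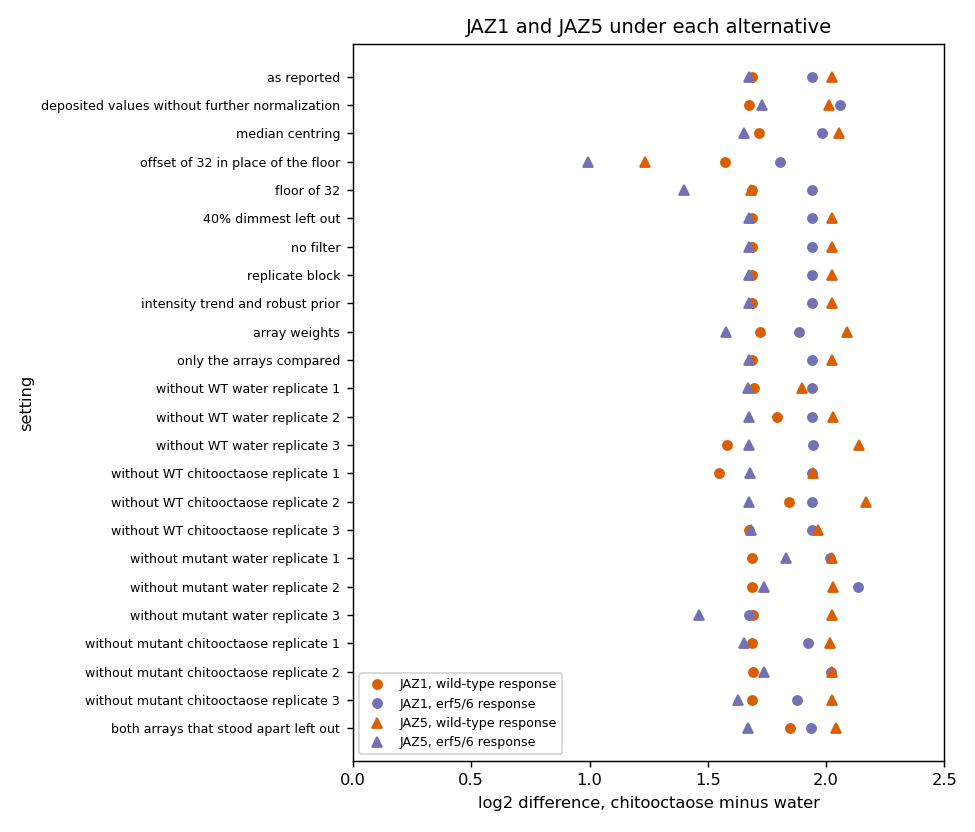
Log2 difference between chitooctaose and water (horizontal axis) for JAZ1 (circles) and JAZ5 (triangles) in wild type (orange) and erf5/6 (violet), as reported and under each of 23 alternative settings (rows; "mutant" is erf5/6). All values lie between 0.99 and 2.17, the lowest being those of JAZ5 with 32 added to every value and no floor.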

How the data were processed

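The authors deposited 1 linear intensity per probe set for each of 12 arrays. Their probe summary, background correction and array scaling are not given in the sources used here. Per the labels' protocols, RNA was extracted with Trizol and amplified from an oligo(dT) primer into biotin-labelled RNA. All 12 columns were used.

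Intensities were quantile normalized, values below 16 set to 16 and log2 taken; 24.1% of values on each array lay below this floor. A probe set under the floor on every array (4066 in number) was dropped. The other 18680 entered limma 3.58.1 (R 4.3.3), fitted to the 12 arrays with a mean for each group and moderated variances, and p-values were adjusted by Benjamini-Hochberg over all of them. Gene names other than those of the JAZ probe sets came from the platform gene table (13513 probe sets with 1 gene, 503 with several, 8730 with none), updated through the RefSeq gene table of assembly TAIR10.1. All 8 JAZ probe sets are named; of each pathway list, genes called in a response or, without one, up to 2 with the lowest p in wild type; and 3 most alike patterns per risen member. Members and lists were chosen with earlier results of these data known. The median 95% interval reached 0.28 to each side on the log2 scale; the number of arrays limits the precision.

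On data simulated from the measured means and variances, with 200 of 18680 probe sets changed, 80% of 2-fold and 97% of 4-fold changes were recovered for the wild-type response (12 false calls), and 90% and 98% for the mutant response (16 false calls). The changed probe sets were drawn from the brighter ones only, so this recovery does not cover dim probe sets such as JAZ7. The simulated noise was independent between probe sets, without the deviations that JAZ signals shared on an array. Alternatives are listed with their effect in the closing section.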

Additional observations from a re-analysis of the deposited data

How the results depend on the processing

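JAZ1 and JAZ5 were called higher in both genotypes, and no other tested JAZ probe set was called in any of the 5 comparisons, under the 23 alternatives run (JAZ7 entered 21 of them): the deposited values without further normalization, median centring, an offset or a floor of 32, the 40% dimmest left out, no filter, array weights, a robust prior with an intensity trend, only the arrays compared (not applicable to the difference between responses), the replicate block, each of 12 arrays left out, and both arrays that stood apart left out. The counts of JAZ probe sets called were therefore 2, 2, 0, 0 and 0 throughout. The highest adjusted p-values over these alternatives were 0.00317 and 0.00173 for JAZ1 and 0.000365 and 0.00129 for JAZ5, in wild type and mutant. Of the rises that were called, that of JAZ5 alone moved by over 1.5 times, to 1.23 and 0.99 with the offset, which by its construction shrinks differences of dim probe sets. Among the members without a call, the sign of the wild-type response changed under 3 alternatives for JAZ2, 6 for JAZ6, 3 for JAZ9 and 5 for JAZ10. In the mutant the sign changed under 1 for JAZ6 and 1 for JAZ9. It held for JAZ2 (-0.25 to -0.03) and JAZ10 (0.08 to 0.34) in the mutant. JAZ7, near the floor, kept its sign or was at 0. None of these was called, so no direction is given for them. Differences that were not called also moved: the difference between responses lay between -0.02 and 0.45 for JAZ1 and between -0.56 and -0.19 for JAZ5, the wild-type response of JAZ9 between -0.23 and 0.28, and the genotype difference of JAZ10 in water between -0.35 and -0.04.

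Arrays that share a replicate number did not deviate together throughout: the correlations of their deviations lay between -0.15 and 0.43, the highest between the water groups. An array correlated best with its own number in 10 of 24 cases, so the numbers were not taken to pair the arrays. These were 4 of 6 between the water groups and 3 of 6 between the chitooctaose groups, against 1 of 6 within wild type and 2 of 6 within the mutant. A pairing of the genotypes within a treatment was not tested, since the replicate block fits the same replicate effects in all 4 groups. With the replicate block the calls numbered 2, 2, 0, 0 and 0 for the JAZ probe sets, and 1823 and 1517 over all probe sets in place of 1894 and 1608 for the 2 responses. Counts over all probe sets in either direction moved by over 1.5 times to 7 in place of 4 for the genotype difference in chitooctaose, with no filter or with array weights, and to 1 in place of 0 for the difference between responses, with the offset, with a floor of 32 or without array 2 of water-treated mutant. Lower calls also moved by over 1.5 times. In wild type the 762 became 1269 with array weights, 358 with only the arrays compared, 449 without both arrays that stood apart, and 354, 431 and 379 without single arrays. In the mutant the 497 became 254 with the deposited values, 921 with array weights, and 309, 322 and 302 without single arrays. With array weights 50.7% of calls were lower in wild type and 42.1% in the mutant, in place of 40.2% and 30.9%. Higher calls moved by under 1.5 times in both.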

Other observations

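The genes next to JAZ1, JAZ5 and their paralogues in the RefSeq gene table were looked up after the values were seen, taking the nearest gene on each side with a tested probe set of its own. AT1G19190, which directly follows JAZ1, was at 0.02 in wild type and 0.20 in the mutant, and AT1G19170, with 2 genes between it and JAZ1, at -0.13 and -0.11, none called with limma. AT1G17360 and AT1G17410, on either side of JAZ5 with 2 and 3 genes between, were at -0.22 and -0.04 in wild type and at 0.03 and -0.22 in the mutant, none called. The neighbours called were AT1G74940 and AT1G72420, both called lower. Over all tested probe sets 4.08% were called lower in wild type and 2.66% in the mutant. AT1G74940, directly before JAZ2, fell by 0.84 in wild type and by 0.90 in the mutant (limma adjusted p = 0.000132 and 7.06e-05). AT1G74990, on the other side with 2 genes between, was at 0.02 and 0.03. AT1G72420, before JAZ6 with 2 genes between, fell by 0.37 in wild type (limma adjusted p = 0.0359) and was at -0.10 in the mutant, not called, a difference between genotypes that was not called either. AT1G72460, after JAZ6 with 1 gene between, was at -0.06 in wild type, not called.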
